A study of Homo sapiens with 3 samples.

Results

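hsa-miR-191 and hsa-miR-425 are made from a pair of neighbouring hairpins in the gene DALRD3. Every name in the count tables that begins with hsa-miR-191 or hsa-miR-425, with either arm suffix, was taken. This gave 4 of the 1921 listed names, namely hsa-miR-191-5p, hsa-miR-191-3p, hsa-miR-425-5p and hsa-miR-425-3p. All were detected in every library. The small RNAs came from 3 cultured strains of the metastatic human liver cancer line HCCLM3, established from a hepatocellular carcinoma (HCC), with 1 library per strain. The parent carried the label low metastasis, although the study describes the parental line it worked with, a red fluorescent derivative of HCCLM3, as highly metastatic. Subclone1 was labelled with metastasis specific to lung, and subclone2 with metastasis to lung as well as celiac lymph node. All strains share the HCCLM3 origin and growth in DMEM. The study grew its subclones from single cells of lung or lymph node metastases in nude mice, so such a strain stands for 1 clone. Which of those clones were sequenced is not given in the labels.

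A microRNA (miRNA) hairpin is cut by Drosha in the nucleus and Dicer in the cytoplasm into a short duplex. The arm kept by an Argonaute protein guides it to target mRNAs, mainly through the seed near the 5′ end of the miRNA, and the other arm is mostly lost. miRNAs in introns are often released from the transcript of their host gene, so neighbouring hairpins can share a transcript while each is cut on its own. miR-191 is abundant in many tissues and is widely used as a reference miRNA in quantitative PCR, and raised levels of miR-191 and miR-425 have been described in several solid tumours, HCC among them. DALRD3 encodes a partner of a tRNA-methylating enzyme.

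In the GRCh38 annotation MIR191 spans 92 bases of the minus strand (chr3:49020618-49020709) and MIR425 spans 87 bases of the same strand (chr3:49020148-49020234), with 383 bases between them. Both lie in intron 1 of 4 annotated DALRD3 transcripts. MIR191 also overlaps intron 1 of 1 transcript of NDUFAF3, a gene on the opposite strand. The mature sequences show which bases would choose targets, and their seeds (bases 2 to 8) are in capitals (RefSeq, GRCh38.p14, read 5′ to 3′ on the minus strand).
hsa-miR-191-5p: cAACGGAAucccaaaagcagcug
hsa-miR-191-3p: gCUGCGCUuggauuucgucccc
hsa-miR-425-3p: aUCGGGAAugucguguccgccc
These 3 seeds differ from each other. None of the other 1575 listed names with a sequence carries any of these seeds. The longest run of bases that hsa-miR-191-5p shares with another of these names is 9 bases (with hsa-miR-646). For hsa-miR-191-3p it is 9 bases (with hsa-miR-1247-5p) and for hsa-miR-425-3p it is 8 bases (with hsa-miR-4681). No longer run of identical bases was shared, but likeness over the full length was not tested. In the MIR191 hairpin, shown because nearly all of its reads came from the first arm, capitals mark the 5p arm (bases 16 to 38) and the 3p arm (bases 58 to 79).
MIR191: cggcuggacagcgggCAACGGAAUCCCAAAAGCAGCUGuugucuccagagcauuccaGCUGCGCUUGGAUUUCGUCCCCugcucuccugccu

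The depth was 7902438 counts for the parent, 3570864 for subclone1 and 4568075 for subclone2. Levels are in CPM, the count divided by the total of its library and multiplied by 1e+06, and the 95% intervals are exact binomial intervals (Clopper-Pearson) that cover counting error only. As a check of the label, 5 hepatocyte markers were read. The defining hepatocyte miRNA hsa-miR-122-5p had only 53, 19 and 18 counts in the parent, subclone1 and subclone2, and hsa-miR-885-5p had 0 in all of them. The abundant marker among them was hsa-miR-192-5p, with 18528, 60246 and 69068 CPM. hsa-miR-194-5p had 108, 271 and 263 CPM, and hsa-miR-148a-3p had 3.42, 6.72 and 5.47 CPM. The 6 blood cell markers summed to between 0.633 and 1.68 CPM, the 4 fibroblast markers to between 2.19 and 4.94 CPM, the 3 muscle markers to between 7.59 and 23.2 CPM, and the endothelial marker to at most 0.438 CPM. The highest single marker of these other cell types was hsa-miR-1 of the muscle list in subclone1, at 21.6 CPM. That was above hsa-miR-122-5p in the same library (5.32 CPM). In no library did these other cell types supply a marker near the level of hsa-miR-192-5p.

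hsa-miR-191-5p, the guide arm of MIR191, was among the abundant miRNAs of every strain. It had 37168 counts in the parent, or 4703 CPM (95% interval 4656 to 4751), which placed it at rank 19 of 743 detected names. In subclone1 it had 12179 counts, or 3411 CPM (3350 to 3472), at rank 20 of 670. In subclone2 it had 16651 counts, or 3645 CPM (3590 to 3701), at rank 20 of 675. The parent was thus highest and subclone1 lowest, with no overlap of the counting intervals, while the rank moved by 1 place.

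The ranks of the miRNAs on either side of it in the parent shifted little as well, but their levels did move. hsa-miR-107 and hsa-miR-140-3p stood directly above hsa-miR-191-5p in the parent, with 8106 and 7442 CPM. hsa-miR-185-5p and hsa-miR-25-3p stood directly below, with 3985 and 2794 CPM. In subclone1 each of these neighbours was higher than in the parent, whereas hsa-miR-191-5p was lower. In subclone2 hsa-miR-140-3p and hsa-miR-185-5p were higher than in the parent, and hsa-miR-107 (7939 CPM) and hsa-miR-25-3p (2477 CPM) lower. In the subclones hsa-miR-185-5p passed hsa-miR-191-5p, with 4832 CPM in subclone1 and 4250 CPM in subclone2. In subclone1 hsa-miR-25-3p, with 3396 CPM, had come within the counting error of hsa-miR-191-5p. Such comparisons between different miRNAs describe reads, since adapter ligation favours some RNA ends over others.

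hsa-miR-425-5p, the more abundant arm of MIR425, was far less represented than its neighbour. It had 288 counts in the parent (36.4 CPM, 32.4 to 40.9), 87 in subclone1 (24.4 CPM, 19.5 to 30.1) and 126 in subclone2 (27.6 CPM, 22.98 to 32.8). The order of the strains was that of hsa-miR-191-5p, but the intervals of the subclones overlapped each other, and that of subclone2 also overlapped that of the parent. Its rank went from 114 in the parent to 143 and 127 in subclone1 and subclone2. Next to it in the parent were hsa-miR-320d and hsa-miR-186-5p above, and hsa-miR-19b-3p and hsa-miR-877-5p below, with 34.2 to 39.5 CPM. In subclone2 these neighbours had spread to between 9.85 CPM for hsa-miR-19b-3p and 48.2 CPM for hsa-miR-320d, while hsa-miR-425-5p stayed between them.

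The other arms had few reads. hsa-miR-425-3p had 90 counts in the parent (11.4 CPM, 9.16 to 14.0), 28 in subclone1 (7.84 CPM, 5.21 to 11.3) and 54 in subclone2 (11.8 CPM, 8.88 to 15.4). Its order was different, with subclone2 level with the parent and subclone1 lowest, and all its intervals overlapped. hsa-miR-191-3p had 13 counts in the parent against 1 and 5 in the subclones (1.65, 0.280 and 1.09 CPM). A count of 0 would allow up to 0.380, 0.840 and 0.657 CPM in these libraries (3 counts of the total). hsa-miR-191-3p in subclone1, detected with 1 count, thus lay below the level that a count of 0 would still allow.

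**Figure D1:**
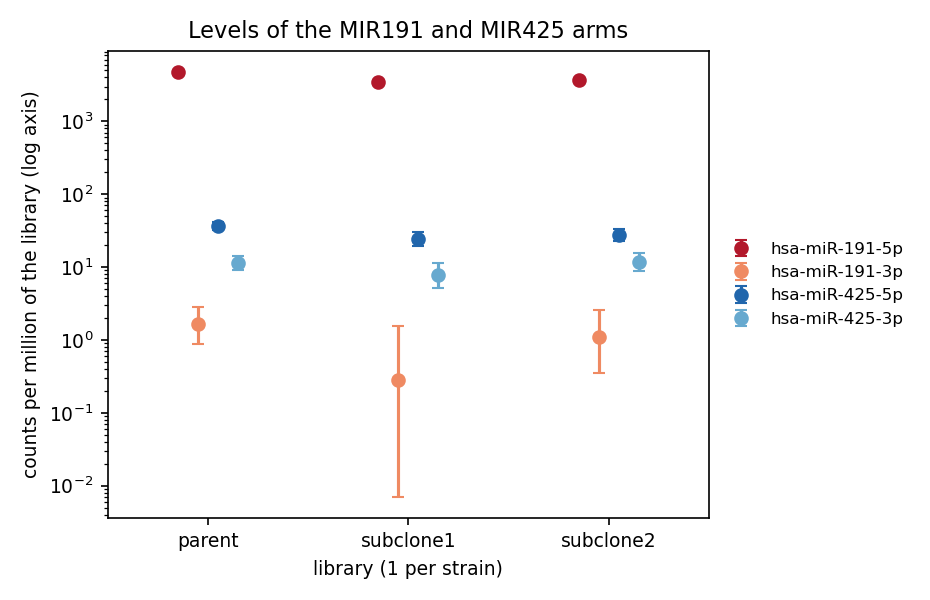
Levels in CPM (log axis) for the 4 arms of MIR191 and MIR425 in the parent, subclone1 and subclone2, 1 library each; points are levels and bars are exact 95% binomial intervals. hsa-miR-191-5p sits between 3411 and 4703 CPM in every library, hsa-miR-425-5p between 24.4 and 36.4 CPM, and hsa-miR-191-3p at or below 1.65 CPM.

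Subclone1, the strain with tropism for the lung, was set against the parent first. hsa-miR-191-5p was 0.725 times its parent level (95% interval 0.710 to 0.740), a log2 ratio of -0.46. hsa-miR-425-5p was 0.671 times its parent level (0.520 to 0.852), a log2 ratio of -0.58. hsa-miR-425-3p had a ratio of 0.697, but its interval of 0.434 to 1.06 included 1. hsa-miR-191-3p, with 1 count against 13, had a ratio of 0.246 and an interval of 0.0040 to 1.13. All 4 ratios were below 1 in this comparison, but the intervals of the 3p arms included 1. The median log2 ratio of all miRNAs averaging at least 10 CPM in these libraries was 0.02, so a ratio below 1 was not unusual.

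A miRNA was called when its ratio was at least 2-fold and the interval excluded 1, among those with a mean of at least 10 CPM in the libraries compared. With 1 library per group there is no test, and such a call compares libraries, not conditions. hsa-miR-191-5p and hsa-miR-425-5p met the minimum level, whereas hsa-miR-425-3p (mean 9.62 CPM) and hsa-miR-191-3p did not. Of these 2 kept arms 0 were called, where 13.0% of the 192 kept miRNAs were called in either direction. Both had intervals wholly below 1, a property of 30.2% of the kept miRNAs. Among all 192 the median log2 ratio was 0.02, and 32 miRNAs lay lower than hsa-miR-191-5p and 24 lower than hsa-miR-425-5p. At a threshold of 1.5-fold 29.2% would have been called, and still 0 of the 2, with hsa-miR-425-5p just short of it. That threshold was run with the library total only. Scaling by trimmed mean of M-values (TMM) put hsa-miR-425-5p at a log2 ratio of -0.64 (-1.01 to -0.29), beyond 1.5-fold. Both arms therefore lay in the lower part of the distribution without reaching the 2-fold threshold.

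Subclone2, the strain with dual tropism, was next set against the parent. Both comparisons use the same parent library, so they are set side by side only. hsa-miR-191-5p was 0.775 times its parent level (0.761 to 0.789), a log2 ratio of -0.37. hsa-miR-425-5p was 0.759 times its parent level (0.609 to 0.936), a log2 ratio of -0.40. hsa-miR-425-3p had a log2 ratio of 0.06, with an interval of -0.46 to 0.56, and hsa-miR-191-3p a ratio of 0.705 on 5 against 13 counts (0.186 to 1.99).

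Of the 3 arms kept in this comparison 0 were called, against 10.7% of 187 kept miRNAs. The intervals of hsa-miR-191-5p and hsa-miR-425-5p lay below 1, as did those of 47.6% of the kept miRNAs, and at 1.5-fold 0 of the 3 arms and 26.7% of the kept miRNAs would have been called. Over all kept miRNAs the log2 ratios had a median of -0.15 here, and TMM scaling raised every ratio by 0.17. Relative to that median hsa-miR-191-5p stood at -0.21, hsa-miR-425-5p at -0.25 and hsa-miR-425-3p at 0.21. Under TMM scaling hsa-miR-191-5p kept an interval below 1 (log2 -0.20, -0.22 to -0.17), but that of hsa-miR-425-5p then included it (log2 -0.23, -0.54 to 0.08). The lower level of hsa-miR-425-5p in subclone2 was thus within counting error under that scaling.

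Subclone2 was also compared with subclone1, whose label lacks the lymph node. With 1 library per strain this comparison cannot isolate lymph node tropism from other differences between the strains. hsa-miR-191-5p was 1.07 times as high in subclone2 (1.04 to 1.09), a log2 ratio of 0.10. For hsa-miR-425-5p the ratio was 1.13 with an interval of 0.855 to 1.51. For hsa-miR-425-3p it was 1.49 with an interval of 0.938 to 2.47, and its mean of 9.83 CPM was under the minimum. hsa-miR-191-3p had 5 counts against 1. Of the 2 kept arms 0 were called, against 5.76% of 191 kept miRNAs (18.8% at 1.5-fold, and again 0 of the 2). An interval wholly above 1, as hsa-miR-191-5p had, was found for 15.7% of the kept miRNAs. Their median log2 ratio was -0.17, and 147 of them lay lower than hsa-miR-191-5p. TMM scaling raised every ratio by 0.23 on the log2 scale. The log2 intervals of hsa-miR-191-5p (0.33, 0.29 to 0.36), hsa-miR-425-5p (0.41, 0.0058 to 0.82) and hsa-miR-425-3p (0.81, 0.14 to 1.54) then all lay above 0. Of these arms hsa-miR-425-3p passed 1.5-fold, though none reached 2-fold.

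**Figure D2:**
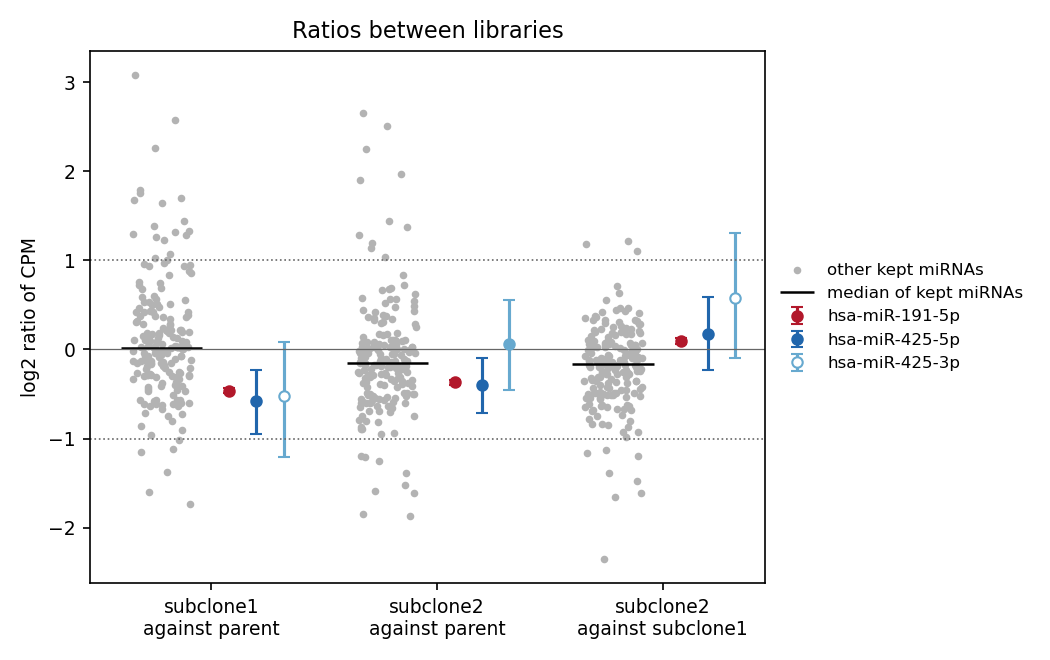
Log2 ratios of CPM in the 3 comparisons; grey points are other miRNAs averaging 10 CPM or more, black lines the median of all kept miRNAs, coloured points the named arms with exact 95% intervals (open where the arm is under the minimum level), and dotted lines mark 2-fold. Against the parent hsa-miR-191-5p lies at -0.46 and -0.37 and hsa-miR-425-5p at -0.58 and -0.40, between the median and the 2-fold line.

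Whether mature miRNAs of the neighbouring hairpins kept a fixed proportion can be asked within each library, where the scaling cancels. The parent held 129 counts of hsa-miR-191-5p for each count of hsa-miR-425-5p (95% interval 115 to 145). Subclone1 held 140 (113 to 175) and subclone2 132 (111 to 159). The intervals of all libraries overlapped. The difference between the log2 ratios of hsa-miR-191-5p and hsa-miR-425-5p was 0.11 in subclone1 against the parent (exact conditional interval -0.23 to 0.48) and 0.03 in subclone2 against the parent (-0.27 to 0.35). Between the subclones it was -0.08 (-0.50 to 0.32). The counts of hsa-miR-425-5p set these limits, and a change of proportion by more than a log2 of 0.50 in either direction lay outside each interval.

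Other neighbouring hairpins give a scale for these differences. All hairpins with a kept miRNA made from that place alone were paired when they lay on the same strand within 10 kb. The most abundant such miRNA stood for each hairpin. It was the less abundant arm for MIR16-2 (hsa-miR-16-2-3p) and MIR92A1 (hsa-miR-92a-1-5p), whose other arms are also made elsewhere. There were 32 pairs, many of which share a cluster. In subclone1 against the parent the absolute difference had a median of 0.31 over the other 31 pairs, up to 0.91 for hsa-miR-106b-5p and hsa-miR-25-3p, and 24 of them exceeded the 0.11 of hsa-miR-191-5p and hsa-miR-425-5p. In subclone2 against the parent the median was 0.24, and 30 of the 31 exceeded 0.03. Between the subclones the median was 0.18, and 25 exceeded 0.08. These places rest on point values, and the intervals of the pair given above held the median of the other pairs in each comparison. The counts therefore do not separate this pair from a typical one. With the arms of each hairpin summed its differences were 0.10, -0.09 and -0.19, while the other pairs were not summed. The counts of the pair were also the most unequal of the 32, with 132 counts of hsa-miR-191-5p for each of hsa-miR-425-5p over all libraries, where the other pairs had a median of 4.43 and reached 89.8 for hsa-miR-30d-5p over hsa-miR-30b-3p.

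**Figure D3:**
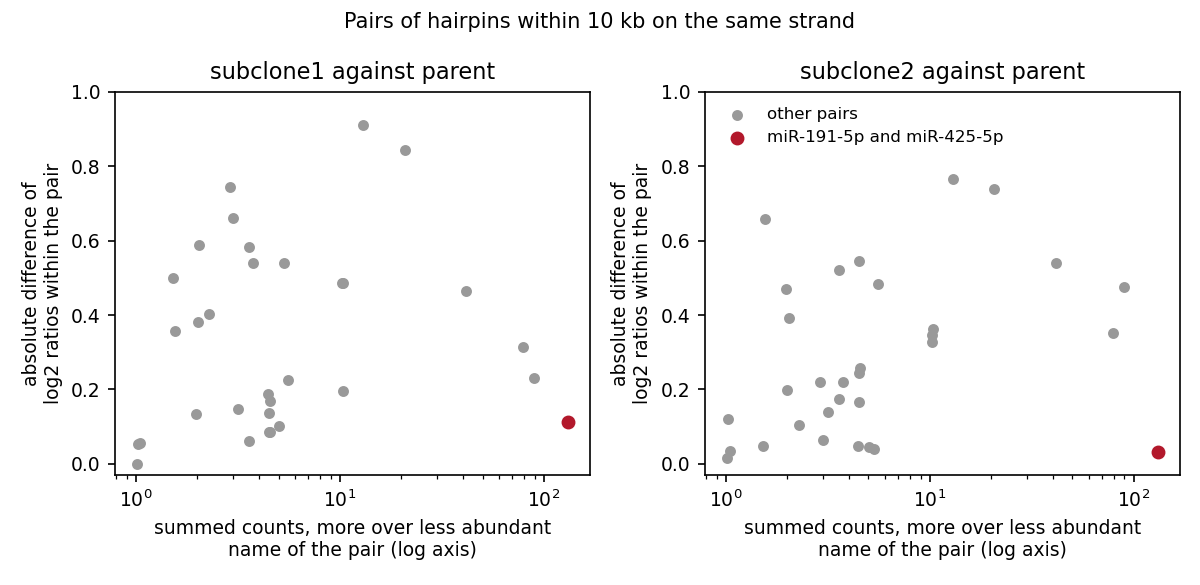
Each point is a pair of hairpins within 10 kb on the same strand; the horizontal log axis gives the summed counts of the more abundant over the less abundant name, and the vertical axis the absolute difference of their log2 ratios against the parent, for subclone1 (left) and subclone2 (right). The red point, hsa-miR-191-5p with hsa-miR-425-5p, lies farthest to the right at 132 and low on the vertical axis, at 0.11 and 0.03.

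The arms of each hairpin were then compared within libraries. In MIR425 the 3p arm took 90 of 378 counts in the parent, or 23.8% (Clopper-Pearson 95% interval 19.6 to 28.4). It took 28 of 115 in subclone1, or 24.3% (16.8 to 33.2), and 54 of 180 in subclone2, or 30.0% (23.4 to 37.3). The share was highest in subclone2, but all intervals overlapped. On the log2 scale hsa-miR-425-3p and hsa-miR-425-5p differed by 0.05 in subclone1 against the parent (-0.72 to 0.77), by 0.46 in subclone2 against the parent (-0.15 to 1.05) and by 0.40 between the subclones (-0.40 to 1.24). No change in arm use was detectable at this depth, and a change as large as 1.05 in subclone2 lay within the interval.

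In MIR191 the 3p arm was almost absent. It took 13 of 37181 counts in the parent, or 0.035% (0.0186 to 0.0598). It took 1 of 12180 in subclone1, or 0.0082% (0.00021 to 0.0457), and 5 of 16656 in subclone2, or 0.0300% (0.0097 to 0.0700). The parent thus held 2859 reads of hsa-miR-191-5p for each read of hsa-miR-191-3p, whereas it held 3.20 of hsa-miR-425-5p for each of hsa-miR-425-3p. Hairpins 383 bases apart in the same intron therefore differed widely in how evenly their arms were read.

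Among 52 hairpin names with at least 10 counts of each arm in every library, the less abundant arm took a median share of 16.7%, 17.2% and 15.6% of the reads in the parent, subclone1 and subclone2. Of these, 19, 19 and 14 had a more even split than MIR425. The absolute log2 difference between arms had a median of 0.42, 0.38 and 0.44 in the comparisons of subclone1 and subclone2 with the parent and of subclone2 with subclone1. MIR425 stood below the median in subclone1 against the parent (0.05, with 50 hairpins above it), above it in subclone2 against the parent (0.46, with 20 above) and below it between the subclones (0.40, with 29 above). These places rest on point values, and the intervals of MIR425 given above held the median in each comparison.

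**Figure D4:**
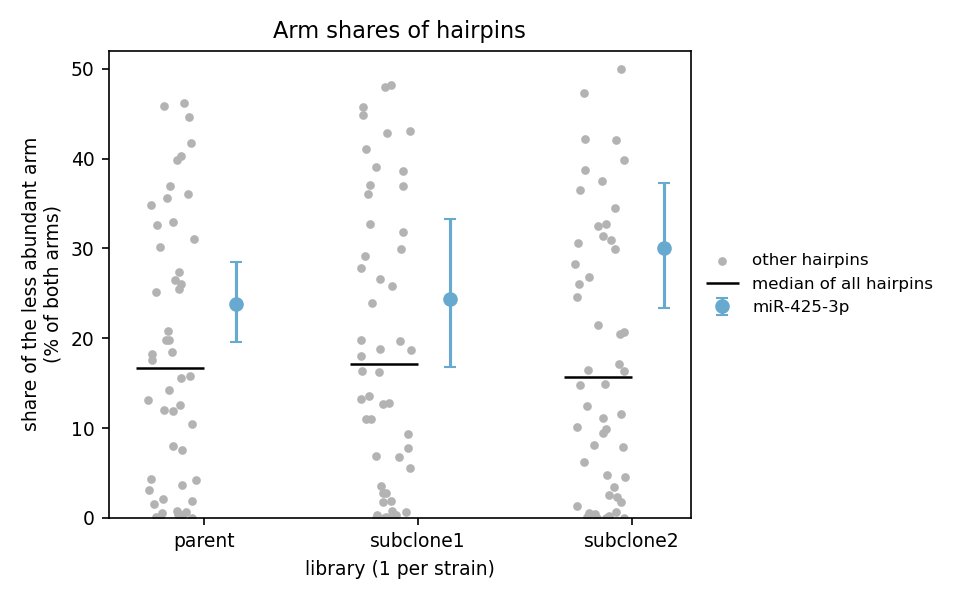
Share of the less abundant arm among the reads of both arms (%), for 51 other hairpins (grey), with the median of all 52 (black line) and hsa-miR-425-3p with its exact 95% interval (blue), in each library. hsa-miR-425-3p has 23.8% in the parent and 24.3% and 30.0% in the subclones, above the median in each.

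The miRNAs whose values were most like these arms were named by the distance between their log2 ratios in subclone1 and subclone2 against the parent, among miRNAs averaging 100 CPM or more. The measure rests on 3 libraries, and the parent enters both ratios. Nearest to hsa-miR-191-5p was hsa-miR-93-5p (distance 0.03, with log2 ratios of -0.46 and -0.39), followed by hsa-let-7g-5p (0.13) and hsa-miR-182-5p (0.13). hsa-miR-425-5p, which is under that level, lay at 0.12 from hsa-miR-191-5p, and only hsa-miR-93-5p of the 88 candidates was nearer. Nearest to hsa-miR-425-5p were hsa-miR-25-5p (0.08), hsa-let-7g-5p (0.11) and hsa-miR-93-5p (0.11). hsa-miR-425-3p had hsa-miR-106b-3p nearest (0.17), then hsa-miR-100-5p (0.29) and hsa-miR-182-5p (0.30), and was farther from hsa-miR-191-5p (0.43) and from hsa-miR-425-5p (0.46). hsa-miR-93-5p, hsa-miR-25-5p and hsa-miR-106b-3p come from neighbouring hairpins in an intron of MCM7, which encodes a subunit of the replicative helicase. The arms of these hairpins did not all move alike. In subclone1 against the parent hsa-miR-25-5p and hsa-miR-106b-5p had log2 ratios of -0.61 and -0.63, whereas hsa-miR-25-3p had 0.28.

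Other miRNAs from chromosome 3 were taken as a list. Of 90 other names whose hairpins all lie there, 32 were detected and 6 were kept in each comparison. The kept names come from the hairpins MIRLET7G, MIR28, MIR15B and MIR16-2 only. MIR15B and MIR16-2 lie 59 bases apart, so the medians rest on few places of the chromosome. The most abundant was hsa-let-7g-5p of the let-7 family, whose members restrain growth and stem cell genes, with a level of 25765 CPM in the parent against 17370 and 21088 CPM in the subclones. hsa-miR-28-3p differed little, with 152, 157 and 153 CPM. hsa-miR-15b-5p, a relative of miR-16, had 129, 107 and 96.3 CPM. In subclone1 against the parent 0 of the 6 were called, where 13.0% of all kept miRNAs were, and the median log2 ratio was -0.21, beside 0.02 over all kept miRNAs. In subclone2 against the parent 1 was called lower, hsa-miR-15b-3p (log2 -1.52), where 4.81% of all kept miRNAs were called lower, and the median was -0.36 beside -0.15. Between the subclones the median was -0.09 beside -0.17, but it turned to 0.14 under TMM scaling, so no direction is drawn from it. hsa-miR-15b-3p was again called lower (log2 -1.39) with 60 counts in subclone1 and 29 in subclone2, where 4.19% of all kept miRNAs were called lower.

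Because miR-191 and miR-425 serve as references in quantitative PCR, they were set beside 20 other miRNAs in such use, 19 of which were kept. Of these 19, 0 were called in each comparison, where 13.0%, 10.7% and 5.76% of all kept miRNAs were called in subclone1 against the parent, subclone2 against the parent and subclone2 against subclone1. Their median log2 ratio was 0.07 in subclone1 against the parent and -0.10 in subclone2 against the parent, beside 0.02 and -0.15 over all kept miRNAs, and TMM scaling turned the latter to 0.070. The 3 most abundant were hsa-let-7a-5p, hsa-miR-320a and hsa-miR-103a-3p, whose log2 ratios ranged from 0.01 to 0.17 in subclone1 and from -0.10 to 0.18 in subclone2. In subclone1 the list ran from -0.46 for hsa-miR-93-5p to 0.51 for hsa-miR-27b-3p. Measured from the median of all kept miRNAs, hsa-miR-425-5p lay farther away than all 19 in that strain (-0.59), and hsa-miR-191-5p (-0.48) farther than 18 of them. These places rest on point values. hsa-miR-93-5p also lay at -0.48 from that median, level with hsa-miR-191-5p. The log2 interval of hsa-miR-425-5p (-0.94 to -0.23) held the -0.46 of hsa-miR-93-5p. In subclone2 both lay inside the range of the list, with 11 of 19 nearer to the median than hsa-miR-191-5p (-0.21) and 12 nearer than hsa-miR-425-5p (-0.25).

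**Figure D5:**
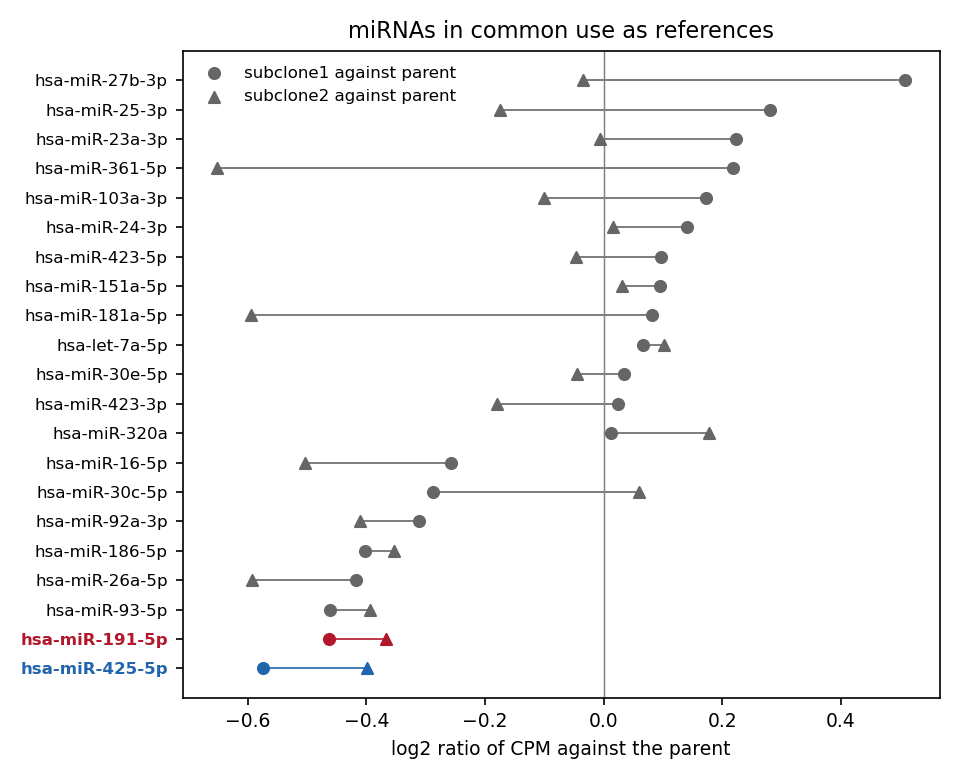
Log2 ratios of CPM against the parent for 19 miRNAs in common use as references and for hsa-miR-191-5p (red) and hsa-miR-425-5p (blue), ordered by the ratio in subclone1; circles are subclone1 and triangles subclone2. The members lie at the low end in subclone1 (-0.46 and -0.58), next to hsa-miR-93-5p, and at -0.37 and -0.40 in subclone2.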

How the data were processed

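Small RNA was sequenced from cultured cells of the 3 strains. Per the labels, libraries were made from Trizol RNA with a TruSeq Small RNA kit of Illumina. The authors deposited raw read counts per mature miRNA name, 1 library per file. The submitters' processing notes name CASAVA 1.4 and hg19. The trimming, aligner, miRBase release and treatment of reads matching several miRNAs are not given in the sources used here. The tables hold no coordinates.

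Counts were scaled to the file total. Ratios used 0.5 counts added to each library, and intervals were exact conditional binomial intervals (scipy 1.17.1). TMM factors came from edgeR 4.0.16 and median-of-ratios factors from DESeq2 1.42.0. The procedure was tested on simulated data. Hairpin positions are from GENCODE release 29 (GRCh38) and sequences from RefSeq (GRCh38.p14). Hairpin genes were found for 1893 of 1921 names, and sequences for 3 of the 4 arms described. Reads carry no molecular identifiers here.

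The members and lists were chosen with earlier results of these data known. Named miRNAs are the 4 arms, their 3 nearest by ratios, the 2 names above and below each 5p arm in the parent, any sharing a seed, and the called and 3 most abundant members of each list. The alternatives were other scalings, minimum levels, fold thresholds and pseudocounts, and summed arms.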

Additional observations from a re-analysis of the deposited data

How the results depend on the processing

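No paired analysis was possible because a strain had 1 library only, and no library could be left out. Of 126 alternative values, 27 moved beyond their interval (for a list median, beyond the median half-width of its members' intervals) or beyond 1.5 times the count. Signs were checked for the log2 ratios of the arms, their differences and the list medians, none of which was called. The called miRNAs were not checked for sign. Of 87 alternative log2 values 11 changed sign, all of them near 0. These were 7 medians of the reference miRNAs, the 3 medians of the chromosome 3 list between the subclones (0.14, 0.12 and 0.05 under TMM, median-of-ratios and the total without the 10 most abundant miRNAs) and the difference of hsa-miR-191-5p and hsa-miR-425-5p in subclone2 against the parent with arms summed (-0.09). Under every alternative run, including a fold threshold of 1.5 with the library total, 0 of the kept arms were called in each comparison. That threshold was not run with the other 3 scalings. Under these hsa-miR-425-5p in subclone1 against the parent passed 1.5-fold (log2 -0.64, -0.64 and -0.65), with intervals below 0. So did hsa-miR-425-3p in subclone2 against subclone1 (log2 0.81, 0.79 and 0.72), with intervals above 0. With the library total that arm was under the minimum level. The differences between hsa-miR-191-5p and hsa-miR-425-5p stayed within their intervals with 5 counts added and with arms summed. Scaling shifts all ratios of a comparison alike. For hsa-miR-191-5p, the same 3 scalings in that order gave log2 ratios of -0.53, -0.53 and -0.54 in subclone1 against the parent, -0.20, -0.22 and -0.30 in subclone2 against it, and 0.33, 0.31 and 0.24 between the subclones. The median of the reference miRNAs was -0.00053 and -0.0060 in subclone1 under the last 2 of these scalings, 0.070, 0.046 and -0.029 in subclone2 under all 3, and 0.089, 0.071 and 0.00092 between the subclones, so no direction is drawn from it. The calls over all miRNAs depended on the thresholds by construction. A minimum of 100 CPM gave 7 and 5 calls in subclone1 and subclone2 against the parent, and 2 between them, no minimum gave 67, 75 and 33, and a fold threshold of 1.5 gave 56, 50 and 36. Their split also varied. Higher and lower calls numbered 33 and 23 in subclone1, 17 and 33 in subclone2 against the parent and 5 and 31 between the subclones at 1.5-fold, and 45 and 22, 35 and 40, and 5 and 28 with no minimum. Scaling to hsa-miR-191-5p gave 38 in subclone1. Between the subclones TMM and median-of-ratios each gave 3 higher and 5 lower, where the total gave 3 higher and 8 lower. Depth limits the results on hsa-miR-425-3p and hsa-miR-191-3p most, with at most 90 and 13 counts in a library.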

Other observations

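hsa-miR-191-5p is a common normaliser, so the calls were repeated with its count in place of the library total, an alternative chosen after seeing the data. In subclone1 against the parent this gave 38 calls, 36 higher and 2 lower, where the library total gave 25 (19 higher and 6 lower). Of the calls, 21 were shared in the same direction. In subclone2 against the parent it gave 21 calls (15 higher and 6 lower) where the total gave 20 (11 higher and 9 lower), and 17 were shared. Between the subclones it gave 14 calls (3 higher and 11 lower) where the total gave 11, all 11 of them shared. This scaling adds a constant to every log2 ratio of a comparison, 0.46 in subclone1 and 0.37 in subclone2 against the parent, so more higher and fewer lower calls follow from the lower hsa-miR-191-5p counts per total by construction. Which reference is nearer to the RNA content of the cells was not tested.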
